A study of Homo sapiens with 9 samples.

Results

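The genes followed were 10: the EMT transcription factors SNAI2, TWIST1, ZEB1 and ZEB2, the cadherins CDH1, CDH3 and CDH2, and the mesenchymal markers VIM, FN1 and SPARC. Members were the probe sets that the platform's annotation assigns to exactly 1 of these symbols, which gave 27 of 54675 probe sets. Of the 27, 20 passed a filter on low signals and were tested among 32768 probe sets, and each of the 10 genes kept at least 1. The cells were MCF10A, a human breast epithelial line that is immortalized but does not form tumours, on 9 Affymetrix arrays in 3 groups of 3. Arrays labelled ERBB2 held RNA of cells infected with a pBabe retrovirus carrying ErbB2, a receptor tyrosine kinase. EGF arrays held RNA of cells with the empty pBabe virus that received 50 ng/ml EGF for 2 h. Vector arrays held RNA of cells with the empty pBabe virus alone. Every group was kept in 2% horse serum and no EGF after infection, and the promoter that drives ErbB2 is not stated in the labels. Replicates are called biological in the labels, which do not say whether each was infected separately; p-values reflect only how far these samples differ, which may be technical.

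In the epithelial to mesenchymal transition, cells loosen their junctions and take up a migratory, matrix-producing state. SNAI2, TWIST1, ZEB1 and ZEB2 are transcription factors that can drive it, in part by repressing CDH1, and SNAI2 is also a transcription factor of normal basal mammary cells. A switch of cadherins, from epithelial CDH1 to neural CDH2, and expression of vimentin, fibronectin and SPARC are its textbook markers, but basal-type lines such as MCF10A carry several of these transcripts at rest.

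Signals are the authors' linear values, scaled to the same trimmed mean on each array, and log2 changes are on the log2(signal + 16) scale, where changes of dim probe sets are understated. A probe set was called at a limma Benjamini-Hochberg adjusted p under 0.05 over all 32768 tested. Signals under 16 made up 44.1% to 50.6% of an array. The brightest probe set of ERBB2 itself averaged 98.8 ± 23.1 on arrays labelled ERBB2 and 174.0 ± 48.0 on vector arrays (SD, n = 3 each, log2 change -0.71, adjusted p = 0.00676). A dimmer ERBB2 probe set averaged 35.6 ± 2.51 on arrays labelled ERBB2 and 12.6 ± 8.78 on vector arrays (log2 change 0.89, adjusted p = 0.00882), and another gave 0.10 (adjusted p = 0.824). The probe sets do not settle whether the label matches the transcript, so directions below are those of arrays labelled ERBB2. The ratio of 5′ to 3′ ACTB signal was 0.737 ± 0.051 on arrays labelled ERBB2, 0.444 ± 0.063 on EGF arrays and 0.379 ± 0.055 on vector arrays. The 18S rRNA control read 11930 to 13510 on arrays labelled ERBB2, 2103 to 3369 on EGF arrays and 1945 to 4570 on vector arrays. Of 7 mammary epithelial markers 5 were measured, the basal keratins KRT5 and KRT14 and the luminal or simple epithelial KRT8, KRT18 and EPCAM, and these did not move together. KRT14 read 137.9 to 155.6 on arrays labelled ERBB2, 1730 to 1814 on EGF arrays and 2324 to 3132 on vector arrays, and KRT5 was lower on both treated groups as well (-0.93 and -0.43). KRT18 read 5905 to 6797 on arrays labelled ERBB2, 5070 to 5145 on EGF arrays and 3304 to 3701 on vector arrays. EPCAM read 2008 to 2611 on arrays labelled ERBB2, 1367 to 1469 on EGF arrays and 983 to 1160 on vector arrays, and both were called higher in each comparison. KRT8 was lower on arrays labelled ERBB2 (-0.39) and not called with EGF (-0.06). The sum of the 5 was 15568 to 16966 on arrays labelled ERBB2, 17365 to 19588 with EGF and 19199 to 21801 with vector. The part of these differences in the results below was not tested.

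Most of the members were lower on arrays labelled ERBB2 than on vector arrays. By the brightest probe set of each gene, 8 of 10 genes were lower, 0 were higher and 2 (CDH3 and CDH2) were not called, where 25.0% of all 13726 genes were called lower and 20.8% higher. By probe set, 14 of 20 were lower and 0 higher, against 21.0% lower and 17.7% higher of all probe sets tested, and no member was higher at an unadjusted p under 0.05 either. The median log2 change of the 20 was -0.99, beside -0.07 over all probe sets. With EGF, 6 of 10 genes were lower, 1 (SNAI2) was higher and 3 were not called, where 18.9% of genes were called lower and 17.2% higher. By probe set, EGF arrays had 12 lower and 1 higher of 20, against 15.9% lower and 12.9% higher of all probe sets, and a median of -0.48 beside -0.11. Both comparisons use the same 3 vector arrays. Of the probe sets lower in both, 2 of ZEB2 read far below the filter on arrays labelled ERBB2 and passed it through the other arrays. When arrays were scaled to equal medians, the share of all calls that were lower went to 32.5% in EGF against vector, where the authors' scaling gave 55.2%, and the median change over all probe sets was 0.05. The members then numbered 9 lower and 1 higher with EGF, and 14 lower with the ERBB2 label.

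**Figure D1:**
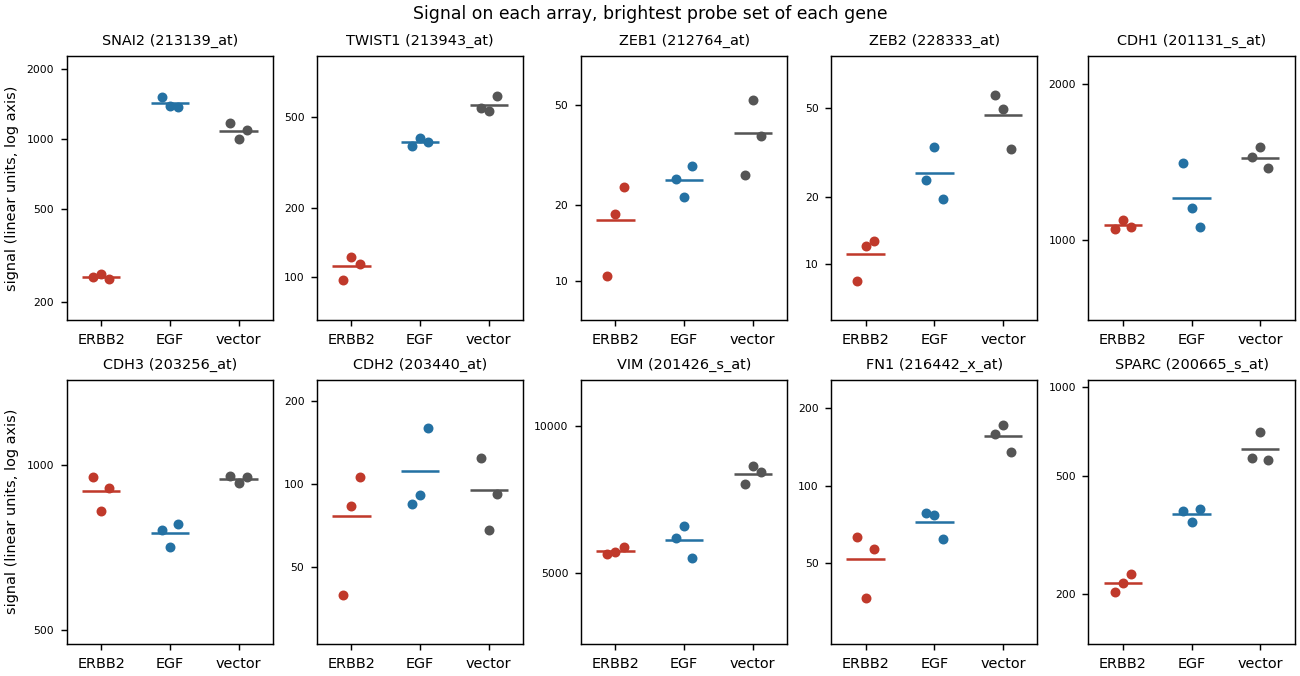
Signals of the brightest probe set of each of the 10 genes on every array, on a log axis, with arrays labelled ERBB2, EGF arrays and vector arrays from left to right; each point is an array and the bar is the group mean. SNAI2 and TWIST1 arrays labelled ERBB2 (250.8 to 263.1 and 96.9 to 122.4) sit below every other array, while the CDH2 points of the 3 groups overlap.

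**Figure D2:**
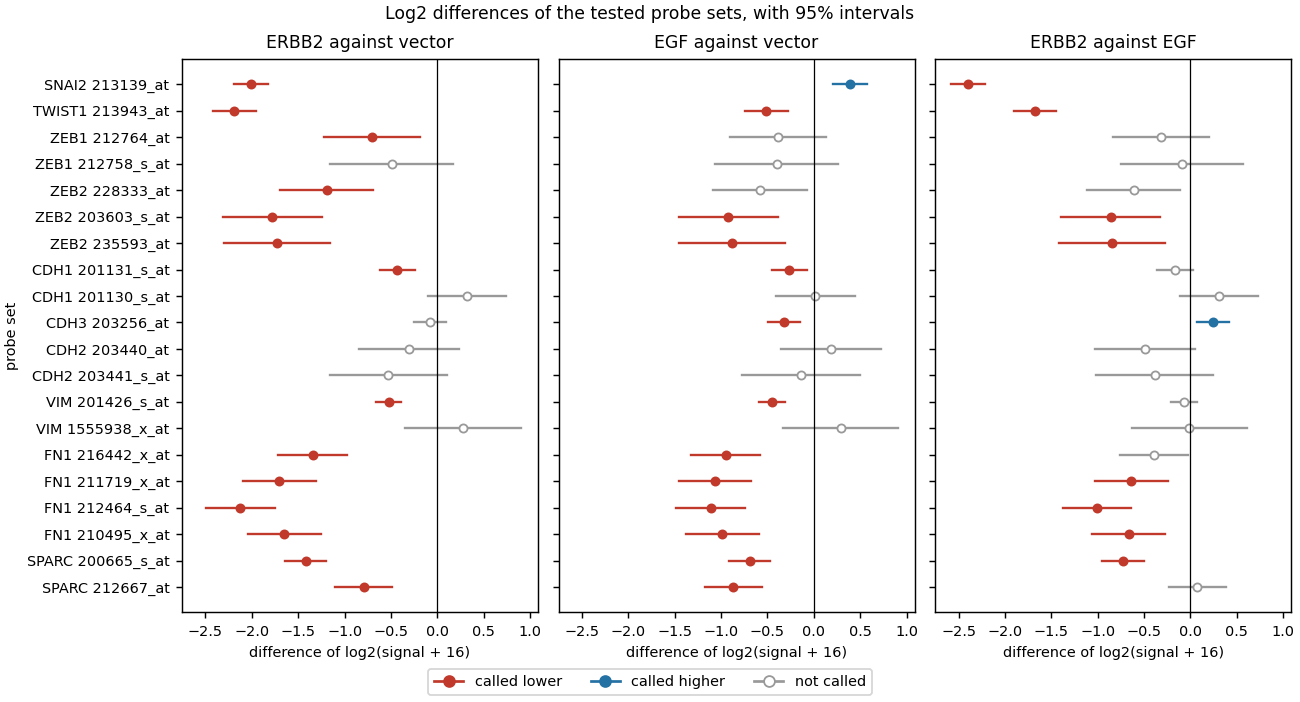
Log2 change of each of the 20 tested member probe sets in the 3 comparisons, with 95% confidence intervals of the limma fit; filled points (red lower, blue higher) passed the adjusted threshold and open points did not. SNAI2 lies at -2.01 for ERBB2 against vector and at 0.39 for EGF against vector.

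SNAI2, the zinc finger factor Slug of basal epithelial cells, had 1 probe set and was the single member that moved in opposite directions. Its signal was 256.8, 263.1 and 250.8 on arrays labelled ERBB2, 1508, 1389 and 1375 on EGF arrays, and 1166, 993.9 and 1094 on vector arrays. No array of 1 group overlapped another group: arrays labelled ERBB2 were the low ones and EGF arrays the high ones. SNAI2 averaged 257 ± 6.17 on arrays labelled ERBB2, 1424 ± 72.7 on EGF arrays and 1085 ± 86.6 on vector arrays (SD, n = 3). It was lower by a log2 change of -2.01 ± 0.09 on arrays labelled ERBB2 than on vector arrays (SE, adjusted p = 5.05e-13) and higher by 0.39 ± 0.09 with EGF (adjusted p = 0.00168). Being lower with the ERBB2 label and higher with EGF, and called between them too, was the pattern of 189 probe sets, 0.577% of all tested.

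TWIST1, a basic helix-loop-helix factor that binds E-boxes, gave 96.9, 122.4 and 113.8 on arrays labelled ERBB2. It gave 372.7, 403.5 and 390.1 on EGF arrays, and 546.1, 528.2 and 614.5 on vector arrays. The 3 groups did not overlap, with arrays labelled ERBB2 lowest and EGF arrays between. The log2 change was -2.19 ± 0.11 on arrays labelled ERBB2 (adjusted p = 5.58e-12) and -0.51 ± 0.11 with EGF (adjusted p = 0.00131).

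ZEB2, a zinc finger and homeodomain repressor, was read by 5 probe sets, of which 3 passed the filter. The brightest read 8.38, 12.1 and 12.7 on arrays labelled ERBB2, 23.9, 33.5 and 19.6 on EGF arrays, and 57.3, 49.9 and 32.8 on vector arrays. Arrays labelled ERBB2 lay below all others, and an EGF array overlapped the vector arrays. The second read 1.68, 1.05 and 1.55 on arrays labelled ERBB2, 18.5, 19.6 and 9.67 on EGF arrays, and 38.6, 40.4 and 53.3 on vector arrays. The third read 1.27, 0.968 and 2.29 on arrays labelled ERBB2, 23.7, 20.4 and 5.48 on EGF arrays, and 39.8, 43.3 and 42.5 on vector arrays. Both of these gave 3 groups that do not overlap. Against vector, the changes on arrays labelled ERBB2 were -1.19 ± 0.24, -1.78 ± 0.26 and -1.73 ± 0.27 in that order (adjusted p = 4.69e-04, 1.14e-05 and 3.67e-05). With a pseudocount of 1 the same changes were -1.96, -4.21 and -4.13, so their size depends on it. With EGF, the brightest was not called (-0.58, adjusted p = 0.0793), while the second (-0.92, adjusted p = 0.00972) and the third (-0.88, adjusted p = 0.0198) were lower. Those EGF calls ended with a pseudocount of 1 (adjusted p = 0.0951 and 0.123), without EGF replicate 3 (-0.77, adjusted p = 0.0603, and -0.61, adjusted p = 0.136) and without vector replicate 3 (-0.81, adjusted p = 0.0569, and -0.87, adjusted p = 0.0583), and the third also without vector replicate 2 (-0.86, adjusted p = 0.0581). The call of the third with EGF also ended with quantile normalization (adjusted p = 0.0555) and with equal array medians (adjusted p = 0.054). On arrays labelled ERBB2 the second and the third lay far below the filter (a signal of about 10.6), so both passed it through the other arrays. That they were lower there was partly fixed by the filter, while the size was not. Fit without a filter, their limma adjusted p was 8.26e-05 and 2.36e-04 on arrays labelled ERBB2, and 0.0234 and 0.0458 with EGF. The other 2 probe sets of ZEB2 read below 9 on every array and were not tested.

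ZEB1, the closest relative of ZEB2 and also a repressor of CDH1, was dim. Its brightest probe set read 10.4, 18.4 and 23.6 on arrays labelled ERBB2, 25.5, 21.6 and 28.8 on EGF arrays, and 26.3, 52.4 and 37.6 on vector arrays. Arrays labelled ERBB2 lay below the vector arrays, and both overlapped the EGF arrays. Its change on arrays labelled ERBB2 was -0.70 ± 0.25 (adjusted p = 0.0297). That call ended without a filter (adjusted p = 0.0831), without vector replicate 2 (-0.53, adjusted p = 0.152) or 3 (-0.70, adjusted p = 0.0659), and without ERBB2 replicate 1 (-0.54, adjusted p = 0.117) or 2 (-0.73, adjusted p = 0.0504). With EGF it was not called (-0.38, adjusted p = 0.276). The second, also tested, was called in no comparison (-0.49 on arrays labelled ERBB2, adjusted p = 0.242), and 2 further probe sets were not tested.

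CDH1, E-cadherin, the adhesion molecule of epithelial adherens junctions, read 1048, 1093 and 1059 on arrays labelled ERBB2 with its bright probe set. It read 1411, 1155 and 1057 on EGF arrays, and 1443, 1511 and 1374 on vector arrays. Arrays labelled ERBB2 all lay below the vector arrays, and EGF arrays overlapped both. The change was -0.43 ± 0.09 on arrays labelled ERBB2 (adjusted p = 8.14e-04) and -0.26 ± 0.09 with EGF (adjusted p = 0.0369). The EGF call ended without a filter (adjusted p = 0.0713), with equal array medians (-0.10, adjusted p = 0.467), without a variance trend (adjusted p = 0.171), without vector replicate 1 (-0.26, adjusted p = 0.0752) or 2 (-0.23, adjusted p = 0.115), and without EGF replicate 2 (-0.24, adjusted p = 0.12) or 3 (-0.17, adjusted p = 0.22). The dimmer CDH1 probe set disagreed: it read 120.4, 109.5 and 59.5 on arrays labelled ERBB2, 69.3, 78.3 and 68.9 on EGF arrays, and 86.8, 67.5 and 60.9 on vector arrays. Its change on arrays labelled ERBB2 was 0.32 ± 0.20 (adjusted p = 0.228), and without ERBB2 replicate 3 it was called higher (0.59, adjusted p = 0.0163).

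CDH3, P-cadherin, the cadherin of basal and myoepithelial mammary cells, adjoins CDH1 on chromosome 16 with 0 genes between them in the RefSeq table of GRCh38.p14. Its 1 probe set read 950.2, 824.4 and 908.0 on arrays labelled ERBB2, 760.8, 707.3 and 780.5 on EGF arrays, and 951.9, 924.0 and 949.0 on vector arrays. The EGF arrays lay below both other groups, which overlapped. CDH3 was not called on arrays labelled ERBB2 (log2 change -0.08, 95% interval -0.25 to 0.10, adjusted p = 0.514) and was lower with EGF (-0.32 ± 0.08, adjusted p = 0.00531). With equal array medians the EGF change was -0.16 (adjusted p = 0.18), and without a variance trend its adjusted p was 0.0553.

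CDH2, N-cadherin, showed no called change. Its brighter probe set read 39.7, 83.6 and 105.7 on arrays labelled ERBB2, 84.4, 91.0 and 158.6 on EGF arrays, and 124.4, 68.2 and 91.8 on vector arrays, so the groups overlapped in every pair. The change was -0.31 on arrays labelled ERBB2 (95% interval -0.85 to 0.23, adjusted p = 0.385) and 0.19 with EGF (-0.35 to 0.73, adjusted p = 0.649). The dimmer one read between 4.47 and 42.1 on the 9 arrays and was not called either (-0.53, adjusted p = 0.186, and -0.14, adjusted p = 0.781).

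VIM encodes vimentin, the intermediate filament protein of mesenchymal cells that MCF10A also makes, and was the brightest member. Its bright probe set read 5467, 5522 and 5651 on arrays labelled ERBB2, 5903, 6234 and 5374 on EGF arrays, and 7610, 8298 and 8072 on vector arrays. Both treated groups lay below every vector array and overlapped each other. The change was -0.53 ± 0.07 on arrays labelled ERBB2 (adjusted p = 2.07e-06) and -0.45 ± 0.07 with EGF (adjusted p = 2.39e-05). The dim one read 4.79 to 23.5 and was not called (0.28, adjusted p = 0.51, and 0.29, adjusted p = 0.526).

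FN1, fibronectin, a matrix glycoprotein that integrins bind, was read by 7 probe sets. Of these, 4 were tested, and all 4 were lower in both comparisons against vector. They share the FN1 transcript and are not independent, and the names of 3 of them (all but the third by brightness) end in x_at, which marks probes that may cross-hybridise. The third by brightness read 22.4, 36.3 and 22.5 on arrays labelled ERBB2, 57.1, 73.0 and 80.5 on EGF arrays, and 174.3, 159.8 and 174.4 on vector arrays. The brightest read 63.2, 36.6 and 56.7 on arrays labelled ERBB2, 78.1, 77.3 and 62.1 on EGF arrays, and 158.5, 171.7 and 135.5 on vector arrays. Vector arrays were the high ones for both, and the 2 treated groups overlapped for the brightest. On arrays labelled ERBB2, the log2 changes of the 4 probe sets ran from -2.12 (adjusted p = 7.95e-09) to -1.35 (adjusted p = 3.66e-06). With EGF they ran from -1.11 (adjusted p = 6.86e-05) to -0.95 (adjusted p = 3.39e-04). The third gave -2.64 on arrays labelled ERBB2 with a pseudocount of 1 and -1.36 with 64. The other 3 failed the filter, and 1 of these was higher on arrays labelled ERBB2 (13.5, 21.3 and 14.9) than on vector arrays (10.1, 5.19 and 11.2) with no overlap. Fit without a filter, it gave 0.39 (adjusted p = 0.277).

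**Figure D3:**
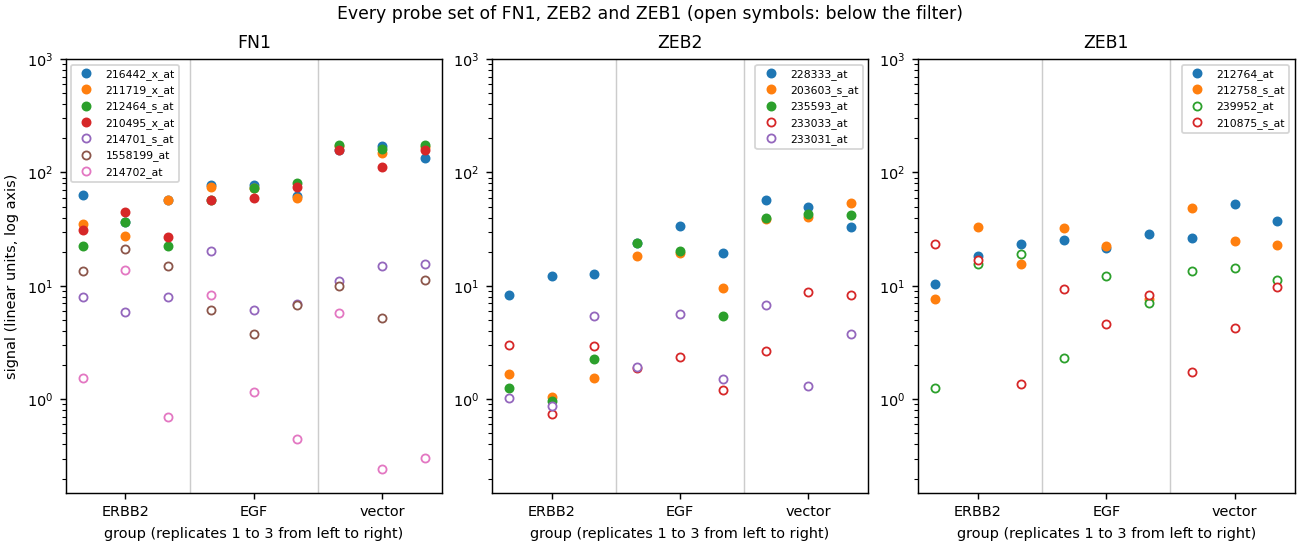
Signals of every probe set of FN1, ZEB2 and ZEB1 on each array, on a log axis in linear signal units, with arrays labelled ERBB2, EGF arrays and vector arrays from left to right; filled points passed the filter and open points did not. The 4 filled FN1 probe sets are highest on the vector arrays, and the second and the third ZEB2 probe sets read at most 2.29 on arrays labelled ERBB2.

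SPARC, a matricellular glycoprotein of mesenchymal and basal cells, read 204.2, 218.3 and 234.4 on arrays labelled ERBB2 with its brighter probe set. It read 381.1, 350.9 and 387.3 on EGF arrays, and 576.0, 704.2 and 564.7 on vector arrays, so that the 3 groups were ordered without overlap. The change was -1.42 ± 0.11 on arrays labelled ERBB2 (adjusted p = 1.76e-09) and -0.69 ± 0.11 with EGF (adjusted p = 4.85e-05). The dimmer SPARC probe set read 75.3, 85.8 and 79.3 on arrays labelled ERBB2, 73.8, 75.7 and 76.1 on EGF arrays, and 169.1, 155.0 and 129.4 on vector arrays. It was lower too (-0.79 ± 0.15, adjusted p = 2.06e-04, and -0.87 ± 0.15, adjusted p = 1.38e-04), but its 2 treated groups overlapped.

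The fibroblast marker DCN, decorin, moved with these matrix genes. The sum of its list, 8 fibroblast markers of which 4 passed the filter, was mostly DCN and read 419 to 601 on arrays labelled ERBB2, 538 to 589 on EGF arrays and 1373 to 1544 on vector arrays. DCN alone read 312 to 458 on arrays labelled ERBB2, 405 to 460 on EGF arrays and 1250 to 1395 on vector arrays. COL1A1 was lower with the ERBB2 label (-0.55, adjusted p = 0.0187), the call being lost without vector replicate 1 or 3, and was not called with EGF (-0.36, adjusted p = 0.149). COL1A2 read 9.18 to 28.3 on arrays labelled ERBB2, 9.63 to 18.75 on EGF arrays and 3.17 to 26.2 on vector arrays. THY1 read 16.97 to 23.3 on arrays labelled ERBB2, 20.5 to 27.1 on EGF arrays and 1.66 to 31.2 on vector arrays. Neither was called in a comparison. LUM, COL3A1, PDGFRA and PDGFRB, further fibroblast markers, read below 20 on every array. The blood and endothelial list read 257 to 319 on arrays labelled ERBB2, 267 to 288 on EGF arrays and 244 to 267 on vector arrays in sum. In it the endothelial PECAM1 was higher with the ERBB2 label, at 89.1 to 90.8 on arrays labelled ERBB2, 28.3 to 46.7 on EGF arrays and 18.2 to 41.95 on vector arrays (1.27 against vector, adjusted p = 7.80e-05), with 2 of 3 other probe sets called the same way. CD14 and HBB were not called, and PTPRC, CD3D, VWF and CDH5 read below 20 on every array. In RNA of whole cultures, fewer cells of a type and less RNA per cell cannot be told apart, and the part of these cells in the results was not tested.

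Promoter windows of ZEB2, FN1 and SPARC are shown because at least 2 probe sets of each were lower in both comparisons. They run from 250 bases before to 50 bases after the start of the gene in RefSeq, GRCh38.p14, on the minus strand, 5′ to 3′. Windows were found for 6 of the 10 genes. Capitals mark the first match to an E-box (CANNTG) in ZEB2 and SPARC, at positions 180 and 232 bases before the start, and to a CRE (TGACGTCA), the site of CREB-type factors, 183 bases before the start in FN1.
ZEB2, chr2:144520070-144520369: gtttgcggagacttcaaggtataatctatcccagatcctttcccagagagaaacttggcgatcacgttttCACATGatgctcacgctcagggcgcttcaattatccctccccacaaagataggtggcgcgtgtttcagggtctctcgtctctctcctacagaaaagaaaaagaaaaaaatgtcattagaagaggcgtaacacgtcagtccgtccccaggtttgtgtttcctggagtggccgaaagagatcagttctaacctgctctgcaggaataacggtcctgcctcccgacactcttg
FN1, chr2:215436019-215436318: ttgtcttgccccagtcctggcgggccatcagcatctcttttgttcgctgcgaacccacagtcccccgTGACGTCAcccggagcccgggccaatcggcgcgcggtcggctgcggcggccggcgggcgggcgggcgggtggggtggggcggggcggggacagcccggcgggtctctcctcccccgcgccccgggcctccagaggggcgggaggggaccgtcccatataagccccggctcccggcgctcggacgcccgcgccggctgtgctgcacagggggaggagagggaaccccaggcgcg
SPARC, chr5:151686866-151687165: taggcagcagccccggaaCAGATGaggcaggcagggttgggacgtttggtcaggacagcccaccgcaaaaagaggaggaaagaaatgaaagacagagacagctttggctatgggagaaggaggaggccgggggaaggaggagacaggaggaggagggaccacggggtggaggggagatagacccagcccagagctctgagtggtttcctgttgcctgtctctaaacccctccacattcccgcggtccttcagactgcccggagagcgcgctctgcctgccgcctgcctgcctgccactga
An E-box of any kind is in 68.7% of 35116 promoter windows of the same length, and the CRE in 1.85%. The narrower E2-box (CACCTG or CAGGTG), the form bound by SNAI2 and the ZEB factors, is in 20.6% of the windows and had no match in these 3. Some windows of ZEB1, which are not shown, did hold it, at 57 bases before the start in 1 of them. A match is a description and not a binding site, and no match says only that these letters are not in this window.

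Arrays labelled ERBB2 and EGF arrays were also compared with each other, since both gave lower members. EGF lasted 2 h, while the ERBB2 virus was present since infection, so stimulus and length of exposure cannot be told apart in this comparison. By gene, SNAI2, TWIST1 and SPARC were lower with the ERBB2 label, CDH3 was higher and 6 were not called, where 16% of all genes were called lower and 12.8% higher. By probe set, 8 of 20 were lower and 1 higher, against 12.2% and 11.6% of all probe sets, and the median was -0.44 beside 0.03. Among the members SNAI2 differed most (-2.40 ± 0.09, adjusted p = 9.46e-14), then TWIST1 (-1.68 ± 0.11, adjusted p = 1.02e-09), the third FN1 probe set (-1.01 ± 0.18, adjusted p = 2.55e-04) and the brighter SPARC probe set (-0.73 ± 0.11, adjusted p = 3.55e-05). The second and the third ZEB2 probe sets were lower (-0.86, adjusted p = 0.0181, and -0.84, adjusted p = 0.0296), as were the second and the fourth of FN1 (-0.64, adjusted p = 0.0172, and -0.67, adjusted p = 0.0132), and each of these 4 calls ended without some single array. The ZEB2 pair, counted among the 8, passed the filter through the other arrays, so being lower with the ERBB2 label was partly fixed by the filter. Without a filter their limma adjusted p was 0.04035 and 0.0646, and with a pseudocount of 64 it was 0.0518 and 0.0569. Without EGF replicate 1, the ZEB2 pair gave -0.79 (adjusted p = 0.0718) and -0.68 (adjusted p = 0.15), and the second of FN1 -0.59 (adjusted p = 0.0658). Without EGF replicate 3, the fourth of FN1 gave -0.57 (adjusted p = 0.0715). VIM was not called between them (-0.07, 95% interval -0.21 to 0.07, adjusted p = 0.498), and the bright CDH1 probe set was not either (-0.17, interval -0.36 to 0.03, adjusted p = 0.219). With equal array medians both were called lower, VIM at -0.18 (adjusted p = 0.044) and CDH1 at -0.28 (adjusted p = 0.0306). CDH3 was higher by 0.25 ± 0.08 (adjusted p = 0.0336), and that call ended with equal array medians (0.14, adjusted p = 0.281), without a variance trend (adjusted p = 0.142), without ERBB2 replicate 1 (0.20, adjusted p = 0.122) or 3 (0.24, adjusted p = 0.091) and without EGF replicate 1 (0.26, adjusted p = 0.0624) or 2 (0.21, adjusted p = 0.135). The count of 9 member probe sets called was 5 without EGF replicate 1 or without EGF replicate 2, and 6 without ERBB2 replicate 1. With equal array medians it was 12, all lower, where the share of all calls that were lower went to 68.2% and the authors' scaling gave 51.2%.

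The tested member probe sets showed several patterns over the 3 comparisons. Lower in both comparisons against vector were 11 of 20 probe sets, 7 of them lower with the ERBB2 label than with EGF as well. Of all 32768 probe sets, 11.2% were lower in both. Shares over all probe sets were not computed for the other patterns of this paragraph, so how common they are is not known. The 7 belonged to TWIST1, ZEB2 (2), FN1 (3) and SPARC (1), and the other 4 to CDH1, VIM, FN1 and SPARC. The limit of the filter given above for ZEB2 holds for its 2 probe sets here. The brightest ZEB1 and the brightest ZEB2 probe set were called lower with the ERBB2 label and not with EGF. Neither was called between arrays labelled ERBB2 and EGF arrays (-0.32, limma adjusted p = 0.404, and -0.61, adjusted p = 0.0743), so a difference between the treatments was not shown for them. CDH3 was called lower with EGF and not with the ERBB2 label. Called in none were 5, of CDH2 (2), CDH1, ZEB1 and VIM.

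Genes around the members were read by lists chosen with earlier results of these data known, each gene by its brightest probe set. Beside the 25.0% and 20.8% of all genes called lower and higher on arrays labelled ERBB2, and 18.9% and 17.2% with EGF, the other EMT transcription factors were 0 higher and 3 lower of 9 with the ERBB2 label. At an unadjusted p under 0.05, 1 was higher and 3 lower in limma. The 3 were TCF12, an E-protein (256 ± 30.9 on arrays labelled ERBB2 and 518 ± 25.9 on vector arrays, -0.98, adjusted p = 2.83e-07), KLF8, a CDH1 repressor (27.2 ± 8.90 and 73.2 ± 23.6, -1.03, adjusted p = 0.00194), and TCF4, another E-protein (-0.66). The 2 other probe sets of TCF12 were not called, with the ERBB2 label or with EGF. With EGF, FOXC2 (342 ± 12.6 on EGF arrays and 204 ± 36.4 on vector arrays, 0.72, adjusted p = 1.44e-04), TWIST2 (0.57) and SOX9 (0.65) were higher, and KLF8 (-1.12, adjusted p = 0.00149) and TCF12 (-0.41, adjusted p = 0.00595) lower. The 1 other tested probe set of each of FOXC2, TWIST2 and SOX9 was not called. The call of TCF12 with EGF ended with equal array medians (adjusted p = 0.106), and that of SOX9 without EGF replicate 3 (0.55, adjusted p = 0.0547). Genes named to complete a count of 5 or fewer, here and below, were chosen after their values were seen.

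Among 12 repressors and antagonists of EMT, 4 were higher and 6 lower with the ERBB2 label, and 1 higher and 7 lower with EGF. Of all genes, 20.8% were higher and 25.0% lower with the ERBB2 label, and 17.2% and 18.9% with EGF. EHF, an epithelial ETS factor, averaged 87.9 ± 9.79 on arrays labelled ERBB2, 315 ± 35.8 on EGF arrays and 1680.1 ± 76.8 on vector arrays. Its changes were -4.03 (adjusted p = 2.83e-16) and -2.36 (adjusted p = 4.30e-12), with 5 of 5 other probe sets called the same way in each. KLF5, a Kruppel-like factor of epithelia, was lower with the ERBB2 label (-1.04, adjusted p = 1.21e-08). With EGF it was not called (0.05, adjusted p = 0.723), though its 1 other probe set was called higher. ID3, which blocks helix-loop-helix factors, was lower with EGF (-1.84, adjusted p = 9.71e-10) and with the ERBB2 label (-1.28, adjusted p = 5.90e-08). The 4 higher with the ERBB2 label were GRHL3 (1.24), GRHL1 (0.86), OVOL2 (0.41) and ESRP1 (0.29), factors of epithelial identity and splicing. GRHL1 was also the 1 higher with EGF (0.83). OVOL2 (-0.96, adjusted p = 2.88e-05) and ESRP1 (-0.31, adjusted p = 0.0355) were lower with EGF, and GRHL3 was not called (-0.19). The 1 other probe set of each of GRHL1, OVOL2 and ESRP1 was not called. Several of these calls were near the threshold: GRHL1 lost its ERBB2 call without vector replicate 3 (0.70, adjusted p = 0.0671) or ERBB2 replicate 2 (0.66, adjusted p = 0.0889). Its EGF call ended without any 1 of 3 arrays. OVOL2 and ESRP1 lost their ERBB2 calls without any 1 of 4 arrays each. The EGF call of ESRP1 also ended under some alternatives, such as equal array medians (-0.15, adjusted p = 0.371).

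Of 9 catenins and adherens junction partners, 2 were higher and 2 lower with the ERBB2 label, and 2 higher and 1 lower with EGF. These counts lie near the shares over all genes, 20.8% higher and 25.0% lower with the ERBB2 label and 17.2% and 18.9% with EGF. VCL, vinculin, was higher in both (0.79, adjusted p = 1.61e-08, and 0.38, adjusted p = 2.95e-04), though its other probe set was not called. JUP, plakoglobin, was lower in both: it averaged 573 ± 29.1 on arrays labelled ERBB2, 624 ± 28.6 on EGF arrays and 1049 ± 42.8 on vector arrays (-0.86, adjusted p = 6.93e-08, and -0.73, adjusted p = 1.18e-06). The others called were NECTIN2 (0.41, lost without any 1 of 6 arrays) and NECTIN4 (-0.63, lost without any 1 of 3 arrays) with the ERBB2 label, and NECTIN1 (0.51, lost without any 1 of 4 arrays) with EGF, and no other probe set of NECTIN2 or NECTIN1 was called. Of the other cadherins, 2 were measured: CDH11, a mesenchymal cadherin, averaged 51.2 ± 5.21 on arrays labelled ERBB2 and 2.94 ± 2.30 on vector arrays, and its other probe set was called the same way. The fit gave 1.83 (adjusted p = 1.18e-05), and 0.78 with a pseudocount of 64. Its EGF arrays averaged 2.24 ± 2.16, so both other groups lay far below the filter (a signal of about 10.6) and it passed through arrays labelled ERBB2 alone; it had to differ, the size of the difference is not fixed, and it was tested in 14 of 19 alternatives. No other cadherin was called with EGF, and 0 of the 2 had an unadjusted p under 0.05 in limma.

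Of 15 desmosome and tight junction genes, 4 were higher and 7 lower with the ERBB2 label, and 2 higher and 7 lower with EGF. The shares over all genes were 20.8% and 25.0% with the ERBB2 label, and 17.2% and 18.9% with EGF. DSP, desmoplakin, averaged 2503 ± 123 on arrays labelled ERBB2 and 6591 ± 631 on vector arrays (-1.39, adjusted p = 1.21e-11). It was lower with EGF as well (-0.43, adjusted p = 1.52e-04). OCLN, the tight junction protein occludin, averaged 609 ± 29.7 on arrays labelled ERBB2 and 135 ± 2.99 on vector arrays (2.04, adjusted p = 4.90e-11). The others higher with that label were EPCAM, an epithelial adhesion molecule (1.13), MARVELD2 (0.43) and CLDN1 (0.39). With EGF, DSG3, a desmosomal cadherin (-1.07, adjusted p = 6.33e-09), and CLDN1, claudin 1 (-1.04, adjusted p = 9.93e-07), were lower, and PKP2 (0.89) and EPCAM (0.41) higher. DSG3 was lower with the ERBB2 label too (-1.08, adjusted p = 2.13e-09). MARVELD2 lost its call without vector replicate 1 (adjusted p = 0.0615), and CLDN1 its ERBB2 call without vector replicate 3 or ERBB2 replicate 1.

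Of 20 mesenchymal matrix and cytoskeleton genes, 5 were higher and 11 lower with the ERBB2 label, and 3 higher and 8 lower with EGF. Over all genes the shares were 20.8% higher and 25.0% lower with the ERBB2 label, and 17.2% and 18.9% with EGF. LOX, which cross-links collagen, averaged 148 ± 33.2 on arrays labelled ERBB2 and 1031 ± 45.9 on vector arrays (-2.69, adjusted p = 1.20e-12). It was lower with EGF as well (-0.83, adjusted p = 2.87e-05). DCN was lower in both (-1.80, adjusted p = 1.26e-10, and -1.60, adjusted p = 1.86e-09). S100A4, a calcium-binding protein of fibroblasts, averaged 1436 ± 33.6 on EGF arrays and 2743 ± 196 on vector arrays (-0.92, adjusted p = 1.02e-06). It was lower with the ERBB2 label too (-0.74, adjusted p = 7.98e-06). Higher with the ERBB2 label were THBS1 (1.16), COL4A2 (0.80), COL4A1 (0.70), TAGLN (1.01) and TNC (1.07), and with EGF CD44 (0.54), COL4A1 (0.48) and LOXL2 (0.39). TNC was dim, at 37.1 ± 7.76 on arrays labelled ERBB2 and 10.0 ± 8.34 on vector arrays, where the filter lay at about 10.6. Its change ran from 0.45 to 2.25 over the alternatives, and no other probe set of TNC was tested. The other probe set of COL4A1 was not called, and 1 of the 11 other probe sets of CD44 was called the same way with EGF. The direction of the list was therefore not uniform.

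Of 7 genes listed as fibronectin receptors, whichever ligand each mainly binds, 1 was higher and 5 were lower with the ERBB2 label. With EGF, 3 were higher and 1 lower. All genes together had 20.8% higher and 25.0% lower with the ERBB2 label, and 17.2% and 18.9% with EGF. ITGB5, the integrin beta 5 subunit, was higher in both, at 630.4 ± 33.9 on arrays labelled ERBB2, 299 ± 26.4 on EGF arrays and 169 ± 1.04 on vector arrays (1.80, adjusted p = 2.92e-11, and 0.77, adjusted p = 8.66e-06). ITGB8, the integrin beta 8 subunit, was lower with the ERBB2 label (-2.05, adjusted p = 2.96e-10), while 0 of its 4 other probe sets were called the same way. ITGA5, the alpha subunit of the main fibronectin receptor, averaged 148 ± 22.4 on arrays labelled ERBB2, 429 ± 11.2 on EGF arrays and 237 ± 30.9 on vector arrays (-0.63, adjusted p = 3.86e-04, and 0.82, adjusted p = 4.06e-05). Also lower with the ERBB2 label were ITGB1 (-0.42), SDC4 (-0.45) and ITGAV (-0.44), and with EGF SDC4 was higher (0.47) and ITGAV lower (-0.42), a call that ended with equal array medians (adjusted p = 0.128). A list of 10 genes of the TGF-beta pathway, a known inducer of EMT, held inputs and inhibitors alike. With the ERBB2 label, 2 of the 10 were higher (SKIL 0.69, adjusted p = 0.00113, and TGFBR1 0.59, adjusted p = 0.00159) and 3 lower (SMAD3 -0.67, TGFB1 -0.48 and SMAD4 -0.28), near the shares over all genes. With EGF, TGFB1 (0.60, adjusted p = 0.00130), TGFBR1 (0.46) and SKIL (0.47) were higher and SMAD2 lower (-0.37, adjusted p = 0.00624), the SMAD2 call ending with equal array medians (adjusted p = 0.142). None of these calls was borne out by a gene's other tested probe sets: for SMAD3, 0 of 3 were called the same way and 1 was called higher with the ERBB2 label, and for SMAD2 0 of 5, SMAD4 0 of 3, SKIL 0 of 2, and TGFBR1 and TGFB1 0 of 1 each were called the same way. SMAD4 lost its call without any 1 of 7 arrays, and TGFBR1 and SKIL their EGF calls without any 1 of 4.

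**Figure D4:**
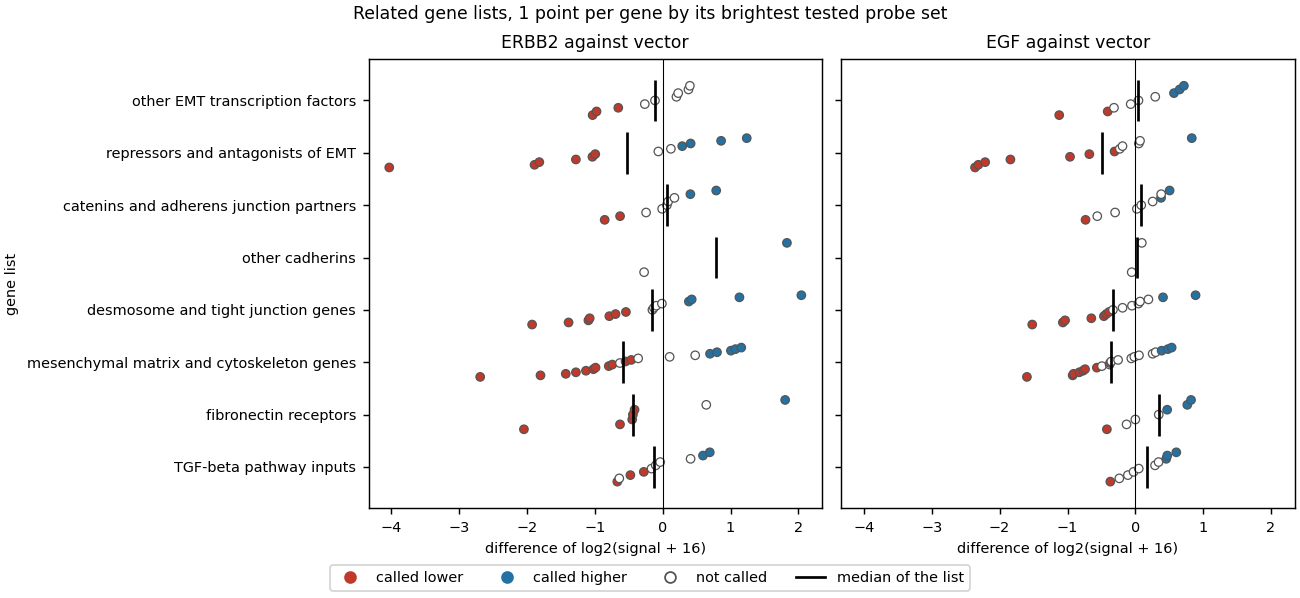
Log2 difference of each measured gene of 8 related lists, by its brightest tested probe set, for ERBB2 against vector (left) and EGF against vector (right); colours mark called lower, called higher and not called, and the vertical bar is the list median. The mesenchymal matrix and cytoskeleton list holds 11 lower and 5 higher of 20 on arrays labelled ERBB2, with EHF of the repressor list farthest left at -4.03.

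Levels can be set in an order only within a probe set, since probes of different genes bind differently. For SNAI2 the order over groups was arrays labelled ERBB2 lowest, then vector arrays, then EGF arrays, each neighbour apart. For TWIST1, the brighter SPARC and the third FN1 probe set it was arrays labelled ERBB2, then EGF arrays, then vector arrays, each neighbour apart. For the bright VIM and the dimmer SPARC probe set the 2 treated groups did not differ beyond their spread, and for CDH3 arrays labelled ERBB2 and vector arrays did not.

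The genes whose values over the 9 arrays were most like those of a member, by the lowest root mean square difference of centred log2 values among 13726 genes, are given as a description. For SNAI2 these were P3H2 (0.175) and MKNK2 (0.221), and for TWIST1 MMP28 (0.133) and SERPINB13 (0.147). P3H2 changed by -2.14 on arrays labelled ERBB2 and 0.22 with EGF, and SERPINB13 by -2.29 and -0.62. For SPARC they were PPP1R12B (0.0658) and SLPI (0.0805), for VIM KLHL21 (0.0595) and FTO (0.0606), and for CDH3 EPB41L4A-AS1 (0.0401) and SMAD2 (0.0507). For CDH1 they were PI4KB (0.0662) and PARP9 (0.0663), for FN1 C1orf226 (0.149) and PPP1R10 (0.154), and for ZEB2 C4orf33 (0.142) and ARHGEF5 (0.143). For ZEB1 they were HCN3 (0.0999) and RUSC1 (0.113), and for CDH2 MIPOL1 (0.191) and ZNF701 (0.225). Arrays of a group share their treatment and scaling, so likeness here follows the group pattern.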

How the data were processed

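RNA of MCF10A cells in 3 groups of 3 was hybridised to 9 one-colour Affymetrix arrays. The authors deposited linear intensities, which MAS5 produced per the submitters' processing notes; version and settings were not given in the sources used here. A trimmed mean (2% at each end) of 100.03 was found on every array, read as scaling of whole arrays by the authors; a shift of many genes one way would be partly absorbed. Detection calls were not used, so which dim signals exceed background is unknown, and the number of arrays limits the precision.

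Groups and replicate numbers came from the titles, and genes from the platform annotation (41097 probe sets name 1 gene, 1801 several and 11777 none); all 27 member symbols equal RefSeq's. From the intensities, log2(signal + 16) was computed, 62 control probe sets were dropped, and the filter kept means over the 40th percentile. Limma 3.58.1 (lmFit, eBayes with a trend) in R 4.3.3 was fitted to all 9 arrays as 1 model of group means with 6 residual degrees of freedom, and p-values were Benjamini-Hochberg adjusted over all probe sets tested. The script was tested on simulated data. A single probe set alone, 3 arrays against 3, cannot reach an exact permutation p below 0.1. The members, gene lists and tests were chosen with earlier results of these data known. Named are all member probe sets, the 2 list genes of lowest adjusted p in each comparison against vector, the 2 genes most like each member, and genes that complete small counts. Same-numbered arrays of different groups correlated between -0.0302 and 0.0191 in their deviations from group means (9 pairs), so the numbers were not taken to pair arrays. No 2 columns were identical. Alternatives were pseudocounts of 1 and 64, no filter, the 60th percentile, equal array medians, quantile normalization, no trend, array weights, a fit of the compared groups alone, a block for the replicate number, and each array left out.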

Additional observations from a re-analysis of the deposited data

Results flagged for a closer look

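SNAI2 was marked because the 2 treatments, each against the same vector arrays, were called in opposite directions and the difference between them was called as well. Other members were called between arrays labelled ERBB2 and EGF arrays too, but none of them in opposite directions against vector. Its log2 change was -2.01 on arrays labelled ERBB2 and 0.39 on EGF arrays. The difference between arrays labelled ERBB2 and EGF arrays was -2.40 ± 0.09 (SE, limma adjusted p = 9.46e-14), with 3 of 3 arrays labelled ERBB2 below all EGF arrays. The kind of stimulus and the length of exposure (2 h of EGF, and virus since infection) cannot be told apart in it.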

How the results depend on the processing

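The 20 member probe sets in 3 comparisons gave 60 results, each recomputed under up to 19 alternatives. Of 36 called, 26 kept their call and direction under every alternative run, 10 lost the call under some, and 0 reversed. Of 24 not called, 17 were called under none. The counts called were 14, 13 and 9 in ERBB2 against vector, EGF against vector and ERBB2 against EGF, and a fit with the replicate block gave the same 14, 13 and 9. Leaving out 1 array gave 13 to 15, 10 to 13 and 5 to 9, with 5 without EGF replicate 1 or without EGF replicate 2; the cause was not tested.

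The sign changes were all in results not called. With array weights, the dim VIM probe set in ERBB2 against EGF was 0.01939 and the second ZEB1 probe set in the same comparison 0.04352, and the dim VIM probe set with a pseudocount of 64 was 0.005237. The dimmer CDH2 probe set in EGF against vector was 0.01086 with quantile normalization and 0.01887 with equal array medians, under which the dimmer SPARC probe set in ERBB2 against EGF was -0.03639. Leaving out 1 array gave ranges of -0.2011 to 0.2274 for the dim VIM probe set and -0.3823 to 0.1522 for the second ZEB1 probe set in ERBB2 against EGF. In EGF against vector they were -0.3637 to 0.06738 for the dimmer CDH2 probe set, -0.065 to 0.3722 for the brighter CDH2 probe set and -0.07369 to 0.1358 for the dimmer CDH1 probe set, and in ERBB2 against vector -0.5424 to 0.02171 for the brighter CDH2 probe set. Of 100 called results of list genes, 77 kept their call under every alternative run, 23 lost it under some and 0 reversed. Dim signals limit ZEB1, ZEB2, CDH2 and FN1, whose change sizes depend on the pseudocount.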
